A study of Mus musculus with 6 samples.

Results

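The 39 genes described here encode transcription factors of the embryonic mesenchyme and the neural crest: Sox, AP-2, Snail, Ets and Zic factors that specify or mobilise crest cells, homeobox factors of the Alx, Msx, Dlx, Prrx and Shox families, the bHLH factors Twist and Hand, T-box factors, and Osr and forkhead factors. They were chosen by name, as genes with an array probe set annotated to that gene alone, and 37 of the 39 had such a probe set, 1 each, out of 22180 genes. Msx1 and Dlx1 are annotated only to probe sets shared with other genes and were not analysed here. Expression was measured on 6 Affymetrix arrays of mouse embryonic fibroblasts (MEFs), connective tissue cells grown from embryos. The cells labelled Pax7-/- (3 arrays, biological replicates 1 to 3) are described as without a working Pax7, a paired-box factor of muscle stem cells, dorsal neural tube and neural crest, and those labelled Pax7+/+ (3 arrays, replicates 1 to 3) as wild type. The genotypes are named here by these labels, which the signal of Pax7 itself did not bear out. Cells of both genotypes had an F1 (C57Bl6N x 129Sv) background, were kept in DMEM with serum and antibiotics and were harvested once confluent. Embryo age, the kind of Pax7 allele and any pooling of embryos are unstated in the labels, as is what cultures the replicate numbers stand for.

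In the embryo, the neural crest leaves the dorsal neural tube by an epithelial to mesenchymal transition that Snail and Twist factors drive, and it gives rise to facial skeleton, pigment cells, glia and peripheral neurons. Sox10 and Foxd3 mark early and glial crest, and AP-2 factors act both in crest and in surface ectoderm. Prrx, Twist, Osr, T-box, Hand and Foxc factors pattern the mesenchyme of limb, body wall, face and heart and stay on in many cultured fibroblasts, where they record the part of the body a cell came from. Pax7 itself takes part in crest induction in chick embryos.

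Promoter sequence is shown for 4 members that differed in the same direction in all 3 replicate pairs, picked after their values were seen. Prrx1, Msx2 and Hand2 hold TAATTA, the core bound by many homeodomains, that of Pax7 included, and Twist2 holds neither it nor an E-box (CANNTG), the hexamer bound by bHLH factors such as Twist and Hand. Each run is the 250 bases before the annotated start, on the gene's strand, from RefSeq (GRCm38.p6). Capitals mark TAATTA and CANNTG, searched on both strands.
Prrx1 (chr1:163313651-163313900, minus strand): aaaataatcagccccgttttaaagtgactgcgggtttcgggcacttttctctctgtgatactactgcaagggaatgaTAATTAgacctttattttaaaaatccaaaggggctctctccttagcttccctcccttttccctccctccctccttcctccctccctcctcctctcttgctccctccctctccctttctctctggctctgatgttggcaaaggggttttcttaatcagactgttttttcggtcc
Msx2 (chr13:53472781-53473030, minus strand): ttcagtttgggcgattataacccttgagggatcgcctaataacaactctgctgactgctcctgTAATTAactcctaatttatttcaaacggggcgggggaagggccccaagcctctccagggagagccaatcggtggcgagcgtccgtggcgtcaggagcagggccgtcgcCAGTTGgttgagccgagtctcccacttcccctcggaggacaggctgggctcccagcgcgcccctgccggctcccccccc
Hand2 (chr8:57320733-57320982, plus strand): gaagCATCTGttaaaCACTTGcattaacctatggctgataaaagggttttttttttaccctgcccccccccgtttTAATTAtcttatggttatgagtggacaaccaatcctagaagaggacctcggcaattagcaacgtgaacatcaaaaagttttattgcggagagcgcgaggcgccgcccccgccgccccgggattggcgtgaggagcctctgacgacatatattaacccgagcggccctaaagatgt
Twist2 (chr1:91801211-91801460, plus strand): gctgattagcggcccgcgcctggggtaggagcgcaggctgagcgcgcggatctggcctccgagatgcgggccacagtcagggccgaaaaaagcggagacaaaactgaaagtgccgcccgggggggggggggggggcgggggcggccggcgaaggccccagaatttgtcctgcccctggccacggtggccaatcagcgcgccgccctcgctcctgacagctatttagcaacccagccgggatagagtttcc

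The TAATTA of Prrx1 begins at -173 from the start, that of Msx2 at -187 and that of Hand2 at -175. The table held 18 such windows for 17 of the measured members. TAATTA was present in 4 of the 18 (22.2%), against 4.84% of all 32851 windows of the same length. The fourth was 1 of the 2 windows of Tfap2a. Of the members with 1 sign in all 3 pairs, 8 had a window and 3 of the 8 held TAATTA, while Dlx2, Foxc1, Tfap2b and Zic1, as well as Twist2, did not. CANNTG was present in 9 of the 18 (50%), against 66.2% of all windows, and CAGGTG, a form of it bound by Snail factors, in 1 of the 18, that of Snai1, against 17.2% of all windows. The windows of the members had a median GC content of 62%, against 52.4% for all. A match describes these letters and is not a binding site.

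Values are log2 signals as the authors deposited them, and differences are Pax7-/- minus Pax7+/+ on that scale. Receptor genes of smell and pheromone sensing (1394) served as a measure of background: the level that 95 percent of them stay under was 4.63 to 5.44 across arrays. A gene is called above background in a genotype when its mean exceeds the mean background there and at least 1 of its 3 arrays lies above. Signals of different probe sets are not compared as amounts of RNA. Fibroblast markers fitted the titles: 13 of 13 measured markers were above background, with a median at percentile 98.2 to 99.02 of all genes on every array. ESCs is what the samples carry as cell type, whereas markers of embryonic stem cells had medians at percentiles 36.99 to 51.3, with 6 of 13 above background. Pax7 had log2 signals of 6.17, 5.95 and 5.05 in Pax7-/- replicates 1, 2 and 3, against 6.14, 5.65 and 4.88 in Pax7+/+. It was above background on all 6 arrays and higher in Pax7-/- in all 3 pairs, by a mean of 0.16 (limma with the block, SE 0.10, adjusted p = 0.804). Its probe set therefore showed no loss of signal, and the labels do not place it relative to the altered stretch. The replicate 3 arrays stood apart from the other 4 in both genotypes, with a wider spread of signals: the interquartile range over genes was 2.98 and 3.02 on the Pax7-/- and Pax7+/+ replicate 3 arrays, against 1.61 to 1.69 on the others, and the background level was 4.63 and 4.65, against 5.33 to 5.44. Across that divide arrays correlated at 0.814 to 0.844, against 0.988 to 0.990 among replicates 1 and 2. Replicate pairs join arrays of the same number, which the labels do not state to be paired. For replicates 1 and 2 the data do not show such a pairing either.

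Most of the factors gave signal over background. Of the 37, 22 (59.5%) lay above it on all 6 arrays, against 37.9% of all genes, and 31 (83.8%) did so in at least 1 genotype, against 55.7% of all genes. The 31 became 19 with the 99th percentile of the receptor genes as background. On single arrays 67.6% to 86.5% of the members were above background, against 44.9% to 58.1% of all genes. The 4 farthest over it were Prrx1, Prrx2 and Osr1, all factors of limb mesenchyme, and Snai2, a Snail factor of migrating crest. The 6 that were above it in neither genotype were Tfap2c, an AP-2 factor of ectoderm and germ cells, Tbx20 of the heart, Dlx5 of the lower jaw, Alx1 of the midface, and Zic1 and Zic2 of the neural plate border and dorsal neural tube. Tbx20 was the lowest of all, at 3.98, 4.08 and 3.75 in Pax7-/- cells, against 4.04, 4.15 and 3.74 in Pax7+/+ cells. It and Tfap2c were at or below background on every array.

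**Figure D1:**
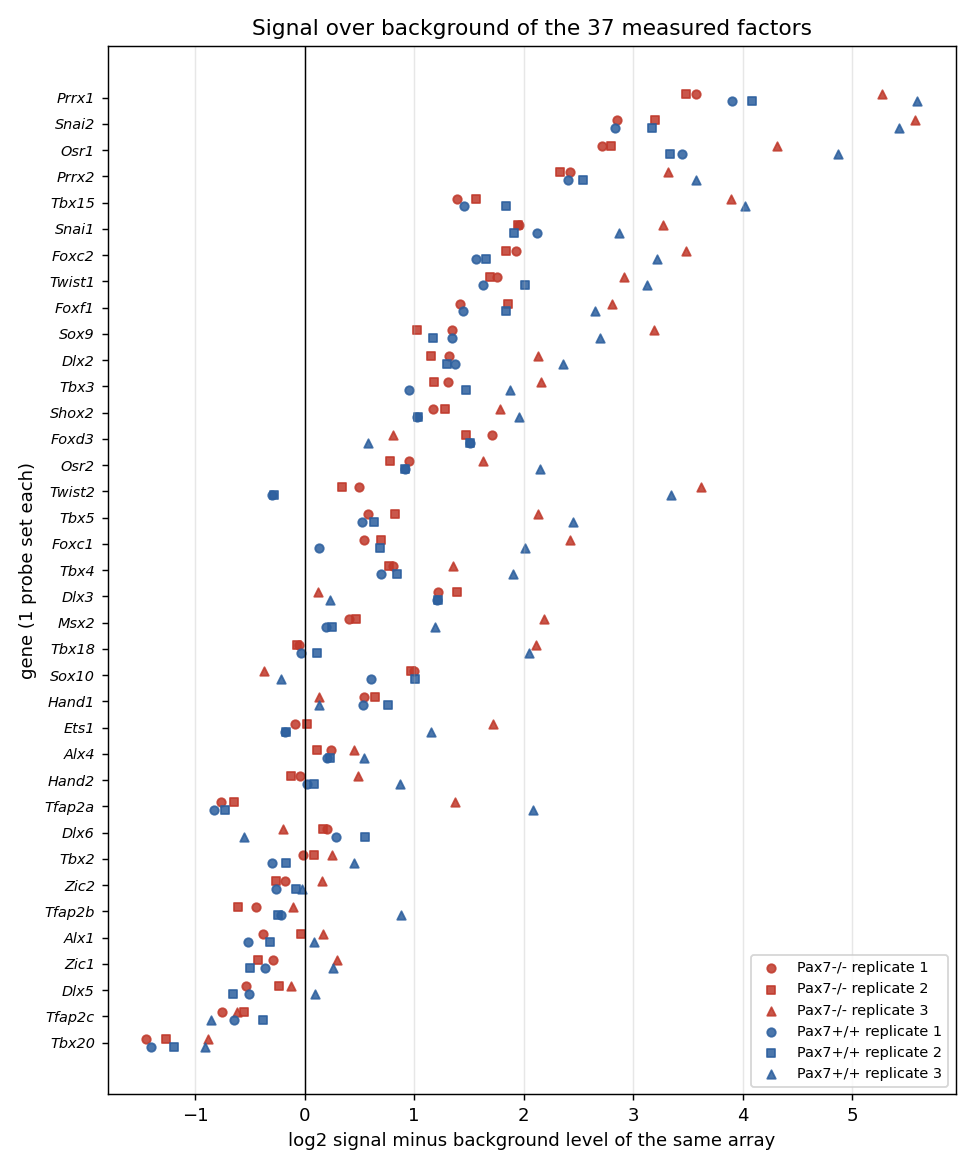
Log2 signal minus the background level of the same array (x axis) for each of the 37 measured factors (y axis, sorted by mean); red, Pax7-/-, blue, Pax7+/+, with the marker giving the replicate. The line at 0 is the background level, Prrx1 is farthest to the right, and the replicate 3 arrays lie apart from the other 2 for many genes.

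No factor passed the threshold between genotypes in the fit with genotype only or in that with the replicate block, and 1 did in each of 2 other settings given below for Osr1 and Tfap2b. With genotype as the only term, limma called 0 of 22180 genes at an adjusted p under 0.05 (0%), and 15 (0.0676%) had an unadjusted p under 0.05, 1 of them a member, Tfap2b. With the replicate number as a block, limma called 17 genes (0.0766%), none of them a member. In that fit 9 of the 37 members (24.3%) had an unadjusted p under 0.05, against 6.73% of all genes. Of those above background in at least 1 genotype, 9 of 31 members had such a p, against 1147 of 12360 genes. That filter can admit a gene through 1 genotype alone, as it did Tfap2b. Of those above background on all 6 arrays, 5 of 22 members had such a p, against 777 of 8416 genes. The members were chosen with earlier results of these data known. The median difference of the members was 0.01, against -0.00 for all genes, and its values in replicate pairs 1, 2 and 3 were 0.03, -0.07 and -0.02. Of the members, 7 were lower in Pax7-/- cells in all 3 pairs, where 13.8% of all genes were, and 8 were higher, also against 13.8%. The 7 were Osr1, Prrx1, Dlx2, Hand1, Hand2, Tbx15 and Tfap2b, and the 8 were Twist2, Msx2, Foxc1, Foxc2, Ets1, Snai2, Alx1 and Zic1, of which Alx1 and Zic1 were not above background in either genotype. Hand1 was level in replicate 1, at 5.97 in both genotypes. Replicates 1 and 2 are paired by number only. With their partners exchanged, Foxc1, Snai2, Zic1, Dlx2, Hand1 and Tbx15 would not keep 1 sign, while the others named would. In pairs 1 and 2 of Tfap2b and pair 1 of Ets1 both arrays lay below background, so their sign there was not measured. The median size of the difference, without its sign, was 0.12 over the 37 members and 0.08 over all genes. Among those above background it was 0.14 over the 31 members and 0.09 over the 12360 genes. Of these 31 members 41.94% had 1 sign in all 3 pairs, against 30.08% of the 12360 genes. Above background on all 6 arrays the share was 40.91% of 22 members, against 30.85% of 8416 genes. The differences of the 37 members correlated at 0.64 between pairs 1 and 2, 0.39 between pairs 1 and 3 and 0.31 between pairs 2 and 3, against 0.03, 0.14 and 0.15 over all genes. Over members above background the values were 0.71, 0.40 and 0.37, against 0.092, 0.225 and 0.216 over all genes above background. Over members above it on all 6 arrays they were 0.57, 0.48 and 0.44, against 0.128, 0.261 and 0.249 over all such genes. These correlations are across genes, which are not replicates.

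**Figure D2:**
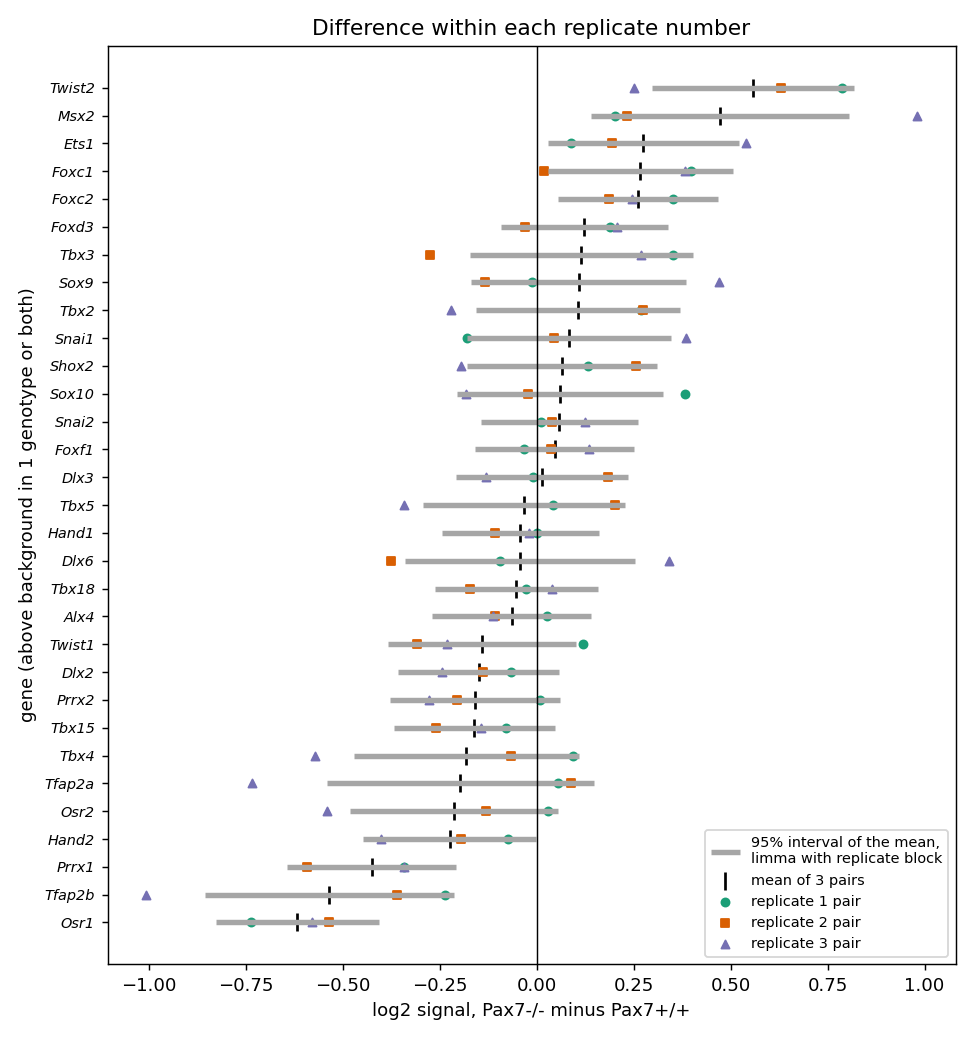
Difference in log2 signal, Pax7-/- minus Pax7+/+ (x axis), for the 31 factors above background in 1 genotype or both (y axis); coloured points are the 3 replicate pairs, the black tick their mean and the grey bar limma's 95% interval with the replicate block. Osr1 and Prrx1 lie below 0, and Twist2 and Msx2 above it, in all 3 pairs.

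Osr1, a zinc finger factor of intermediate and lateral plate mesoderm that marks fibroblast progenitors of limb and body wall, had the most negative difference of the members. Its log2 signals were 8.15, 8.14 and 8.94 in Pax7-/- replicates 1, 2 and 3, against 8.89, 8.67 and 9.52 in Pax7+/+. Each Pax7-/- array lay below its Pax7+/+ partner, but the genotypes overlapped because replicate 3 was high in both. Osr1 averaged 8.41 ± 0.46 in Pax7-/- cells and 9.03 ± 0.44 in Pax7+/+ cells (SD, n = 3 each). The difference was -0.62, or 1.53-fold lower (limma with the replicate block, SE 0.09, adjusted p = 0.0650; SE 0.34 with genotype only, adjusted p = 1.00), with -0.74, -0.54 and -0.58 in the 3 pairs. When genes not above background on at least 3 arrays were left out, a setting added after the data were seen, Osr1 was the only member of 29 called (adjusted p = 0.0349 with the block), against 0.38% of the 11048 genes so tested. Its paralogue Osr2, which acts in palate, joints and limb, was at 6.38, 6.12 and 6.26 in Pax7-/- cells, against 6.35, 6.25 and 6.80 in Pax7+/+. Only the replicate 3 pair of Osr2 was far apart, and the mean difference was -0.21 (SE 0.12 with the block, adjusted p = 0.797).

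Beside Osr1 and Prrx1, markers of fibroblasts were lower in all 3 pairs for 8 of 13 genes and higher for 1, against 13.8% of all genes each way. The 8 include Lum, which lay below background on replicates 1 and 2 in both genotypes. The sign of Lum in those pairs was therefore not measured. The summed linear signal of the 13 was 17561 to 20345 in Pax7-/- arrays, against 17975 to 21187 in Pax7+/+ arrays. Within each replicate number the Pax7-/- sum was the lower one. Mesothelial markers, of which 4 of 8 were above background, summed to 317 to 371 in Pax7-/- arrays, against 368 to 391.9 in Pax7+/+ arrays. Msln and Muc16 were not among the 4. This sum too was lower in Pax7-/- within each replicate number, though by little in replicate 1 (370.99 in Pax7-/-, 372.62 in Pax7+/+). Other lists went the other way. Of 10 skeletal muscle markers, 7 above background, 0 were lower and 4 higher in Pax7-/- in all 3 pairs. They summed to 1079, 1165 and 1280 in Pax7-/- replicates 1, 2 and 3, against 1075, 1073 and 855 in Pax7+/+. Of 10 markers of pericytes and smooth muscle, 0 were lower and 3 higher in all 3 pairs. The part of any marker list in the differences was not tested. In these bulk samples fewer cells of a type and less RNA per cell cannot be told apart.

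The homeobox factors were mostly near 0. Of 10 measured, 2 (Prrx1 and Dlx2) lay below their partner in every pair and 2 (Msx2 and Alx1) above, and the family median was -0.01. Prrx1, which drives mesenchyme of limb and face, had 9.003, 8.83 and 9.90 in Pax7-/- cells, against 9.34, 9.42 and 10.24 in Pax7+/+ cells. All 3 Pax7-/- arrays were below their partners, by 0.34, 0.59 and 0.34, and the mean difference was -0.42, or 1.34-fold lower (limma with the block, SE 0.10, adjusted p = 0.295). Its paralogue Prrx2 had 7.85, 7.67 and 7.95 in Pax7-/- cells, against 7.84, 7.88 and 8.23 in Pax7+/+, a difference of -0.16 (SE 0.10). The pairs of Prrx2 split, with replicate 1 level and the other 2 lower.

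Msx2, a repressor that acts downstream of BMP signals in crest, skull and limb, had 5.83, 5.82 and 6.82 in Pax7-/- cells, against 5.63, 5.58 and 5.84 in Pax7+/+ cells. The replicate 3 Pax7-/- array was the high one, and the means were 6.16 ± 0.57 in Pax7-/- and 5.68 ± 0.13 in Pax7+/+ cells (SD, n = 3 each). The difference was 0.47 (limma with the block, SE 0.15, adjusted p = 0.573), with 0.20, 0.23 and 0.98 in the 3 pairs, and 0.22 with the block and without replicate 3. Dlx2, a factor of the branchial arches, had 6.74, 6.498 and 6.76 in Pax7-/- cells, against 6.81, 6.64 and 7.01 in Pax7+/+, a difference of -0.15 (SE 0.09). Dlx6, which acts with Dlx5 in the lower jaw, had 5.63, 5.51 and 4.44 in Pax7-/- cells, against 5.72, 5.89 and 4.10 in Pax7+/+, while Dlx5 had 4.89, 5.11 and 4.50 in Pax7-/- cells, against 4.93, 4.68 and 4.75 in Pax7+/+. The pairs of each gene went both ways, but both replicate 3 arrays of Dlx6, its only higher pair, lay below background. Dlx5 was above background on Pax7+/+ replicate 3 only, so its higher pair was not measured either. Alx4, an aristaless-type factor of skull and limb, had 5.67, 5.46 and 5.08 in Pax7-/- cells, against 5.65, 5.57 and 5.19 in Pax7+/+, and its relative Alx1 had 5.05, 5.31 and 4.79 in Pax7-/- cells, against 4.93, 5.02 and 4.74 in Pax7+/+. Shox2, a factor of limb and sinus node, was at 0.07 (SE 0.11) and Dlx3, of ectoderm and bone, at 0.01 (SE 0.10).

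**Figure D3:**
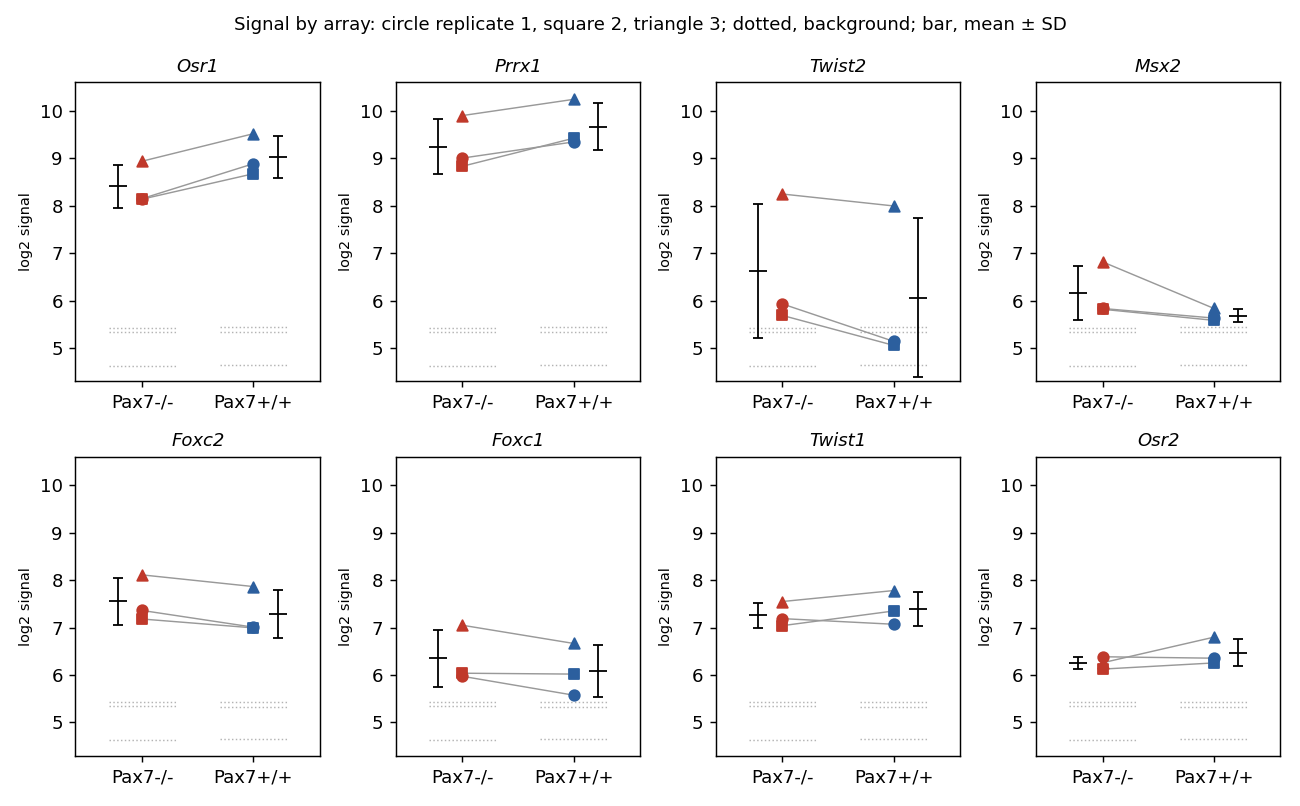
Log2 signal (y axis) on each array of 8 factors, with Pax7-/- left and Pax7+/+ right in each panel; grey lines join arrays of 1 replicate number, dotted lines are the background levels and bars are mean ± SD (n = 3 arrays). The lines of Osr1 and Prrx1 run upward to Pax7+/+ in all 3 pairs, those of Twist2, Msx2, Foxc2 and Foxc1 downward, and those of Twist1 and Osr2 both ways.

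Among the bHLH factors the 2 Twist genes differed in their values. Twist2 (Dermo1), a factor of dermal and other fibroblasts, had 5.93, 5.69 and 8.25 in Pax7-/- cells, against 5.14, 5.06 and 7.99 in Pax7+/+ cells. Pax7+/+ replicates 1 and 2 lay below background, so the pairs 1 and 2 are partly measured against it. The difference was 0.56, or 1.47-fold higher (limma with the block, SE 0.12, adjusted p = 0.214), with 0.79, 0.63 and 0.25 in the 3 pairs, and 0.37 if signals under background are set to it. Twist1, which crest migration and skull sutures require, had 7.19, 7.04 and 7.55 in Pax7-/- cells, against 7.07, 7.35 and 7.78 in Pax7+/+ cells. Its pairs went both ways and the mean was -0.14 (SE 0.11). The difference between the 2 genes was not tested.

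Hand2, a factor of heart, limb bud and branchial arches, had 5.39, 5.22 and 5.12 in Pax7-/- cells, against 5.47, 5.42 and 5.52 in Pax7+/+ cells. All Pax7-/- arrays were lower than all Pax7+/+ arrays, by a mean of -0.22 (limma with the block, SE 0.10, adjusted p = 0.742; -0.13 without replicate 3), but Pax7-/- replicates 1 and 2 lay below background. Hand1, of heart and placenta, had 5.97, 5.99 and 4.76 in Pax7-/- cells, against 5.97, 6.10 and 4.78 in Pax7+/+ cells, a difference of -0.04 (SE 0.09). Genotypes did not overlap for 2 of the 37 members, Hand2 and Tfap2b, both lower in Pax7-/- cells. Of all genes 0.744% had no overlap in that direction, and 313 of 22180 had none in either direction. Both members had arrays below background. Among those above background on all 6 arrays, genotypes did not overlap for 0 of 22 members, against 110 of 8416 genes.

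Tfap2b, an AP-2 factor of crest, had 4.99, 4.73 and 4.52 in Pax7-/- cells, all below background, against 5.23, 5.09 and 5.53 in Pax7+/+ cells, where only replicate 3 was above it. The fitted difference was -0.53 (limma, SE 0.21 with genotype only, unadjusted p = 0.0485, adjusted p = 1.00; SE 0.14 with the block, adjusted p = 0.444). On replicates 1 and 2 both genotypes lay below background, so only the replicate 3 pair measured a difference, and no bound on its size holds without that pair. With the block and without replicate 1, Tfap2b was the only member called (-0.68, adjusted p = 0.0426), in a fit that called 0.442% of all genes. It was not called without replicate 2 (-0.62, adjusted p = 0.517) or without replicate 3 (-0.30, adjusted p = 0.929). Tfap2a, the AP-2 factor of early crest, had 4.67, 4.70 and 6.0 in Pax7-/- cells, against 4.61, 4.61 and 6.73 in Pax7+/+ cells. It was above background on the replicate 3 arrays only, in both genotypes, and its fitted difference is not read as a size.

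The Snail factors, which repress E-cadherin during crest delamination, differed little. Snai2 (Slug) had 8.29, 8.54 and 10.20 in Pax7-/- cells, against 8.27, 8.50 and 10.07 in Pax7+/+ cells, a difference of 0.06 (limma with the block, SE 0.09, 95% interval -0.14 to 0.26). Snai1 had 7.39, 7.29 and 7.90 in Pax7-/- cells, against 7.57, 7.25 and 7.52 in Pax7+/+ cells, and its pairs went both ways. Sox9, which drives cartilage and crest fates, was at 0.11 (SE 0.12 with the block) and the forkhead pioneer factor Foxd3 at 0.12 (SE 0.10), neither with 1 sign in the 3 pairs. Sox10, of glial and pigment crest, lay below background on both replicate 3 arrays, and its fitted difference is not read as a size. Ets1, a factor of delaminating cranial crest, of endothelium and of lymphocytes, had 5.35, 5.36 and 6.35 in Pax7-/- cells, against 5.26, 5.17 and 5.81 in Pax7+/+ cells. Pax7-/- arrays were the higher of each pair, by a mean of 0.27 (limma with the block, SE 0.11, adjusted p = 0.692), but Pax7+/+ replicates 1 and 2 and Pax7-/- replicate 1 lay below background. With background in place of dimmer Pax7+/+ signals the difference of Ets1 was 0.16, and with the block and without replicate 3 it was 0.14.

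The forkhead factors Foxc1 and Foxc2, needed in somites, head mesenchyme and vessels, were both higher in Pax7-/- cells in all 3 pairs. Foxc2 had 7.36, 7.18 and 8.11 in Pax7-/- cells, against 7.01, 6.99 and 7.86 in Pax7+/+ cells, a difference of 0.26 (limma with the block, SE 0.09, adjusted p = 0.639). Foxc1 had 5.97, 6.04 and 7.05 in Pax7-/- cells, against 5.58, 6.02 and 6.67 in Pax7+/+ cells, a difference of 0.27 (SE 0.11, adjusted p = 0.692), and its replicate 2 arrays were level. Foxf1, the forkhead factor of gut and lung mesenchyme, was at 0.05 (SE 0.09). The genotypes overlapped for all 3 genes.

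The 7 T-box factors had a median difference of -0.04, and none was higher in all 3 pairs. Tbx15, of dermis and limb mesenchyme, was lower in all 3 pairs, with 6.82, 6.91 and 8.52 in Pax7-/- cells, against 6.90, 7.17 and 8.67 in Pax7+/+ cells, a mean of -0.16 (limma with the block, SE 0.09, adjusted p = 0.8004). The hindlimb factor Tbx4 had 6.24, 6.11 and 5.98 in Pax7-/- cells, against 6.14, 6.18 and 6.55 in Pax7+/+ cells, so that only its replicate 3 pair was far apart. Tbx5, its counterpart in forelimb and heart, was at -0.03 (SE 0.12) and above background on every array, as was Tbx4. The repressor Tbx3, of limb, heart and mammary gland, had 6.74, 6.53 and 6.79 in Pax7-/- cells, against 6.39, 6.80 and 6.52 in Pax7+/+ cells, and its relative Tbx2 had 5.41, 5.43 and 4.88 in Pax7-/- cells, against 5.14, 5.16 and 5.10 in Pax7+/+. The pairs of both split. Tbx2 counted as above background in Pax7-/- cells only, and both its replicate 1 arrays lay below background, so its sign there was not measured. Tbx18, of somites and epicardium, had 5.38, 5.28 and 6.74 in Pax7-/- cells, against 5.41, 5.45 and 6.70 in Pax7+/+ cells. With 3 of the 6 arrays below background, its fitted difference is not read as a size.

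Replicate 3 differed from the other replicates by more than the genotypes did, on arrays with the wider spread of signals given above, whose part in these shifts was not tested. Its difference from the mean of replicates 1 and 2, averaged over the genotypes, had a median size of 0.61 over the 37 members and 0.75 over all genes. Twist2 was higher on replicate 3, by 2.44 in Pax7-/- and 2.90 in Pax7+/+ cells. Snai2 was higher by 1.79 in Pax7-/- and 1.69 in Pax7+/+ cells, Tbx15 by 1.66 in Pax7-/- and 1.63 in Pax7+/+ cells, Tbx18 by 1.41 in Pax7-/- and 1.27 in Pax7+/+ cells, and Tfap2a by 1.32 in Pax7-/- and 2.12 in Pax7+/+ cells. These 5 (13.5% of the members, against 25% of all genes) were more than 1 higher. As many (13.5%, against 11.5% of all genes) were more than 1 lower: Sox10 at -2.12 in Pax7-/- and -1.75 in Pax7+/+ cells, Dlx3 at -1.94 in Pax7-/- and -1.72 in Pax7+/+ cells, Foxd3 at -1.55 in Pax7-/- and -1.68 in Pax7+/+ cells, Dlx6 at -1.14 in Pax7-/- and -1.71 in Pax7+/+ cells, and Hand1 at -1.22 in Pax7-/- and -1.25 in Pax7+/+ cells.

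**Figure D4:**
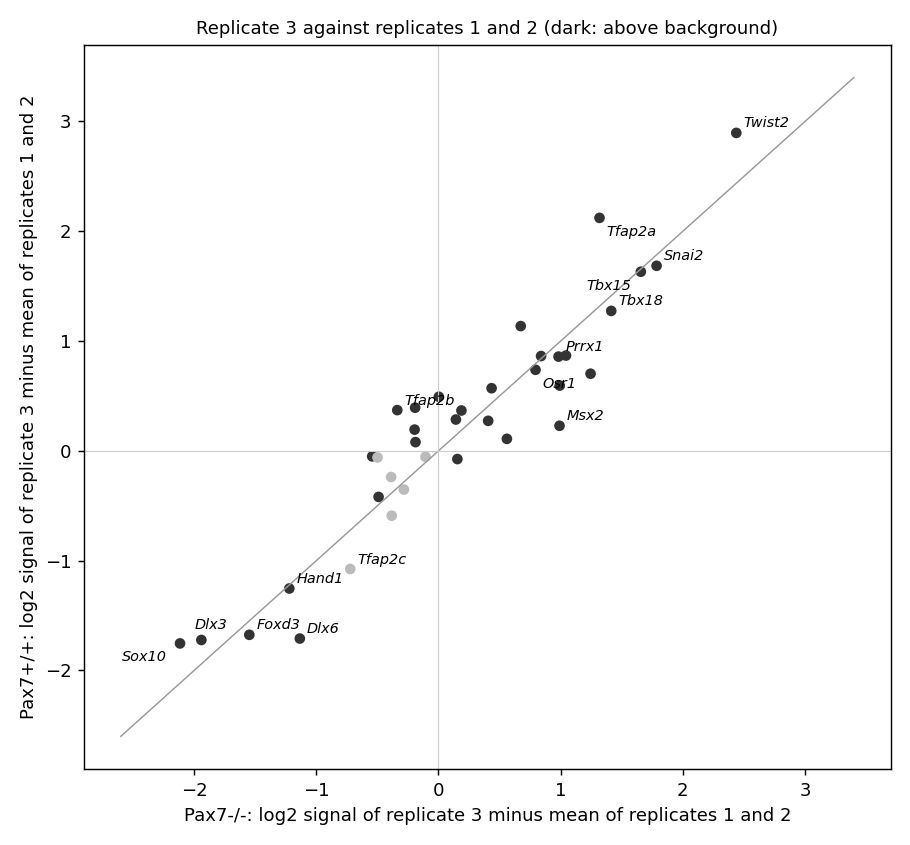
Log2 signal of replicate 3 minus the mean of replicates 1 and 2 in Pax7-/- (x axis) and Pax7+/+ cells (y axis) for the 37 factors; dark points are above background in 1 genotype or both and the line marks equal shifts. Twist2 lies at the upper right (2.44 in Pax7-/-, 2.90 in Pax7+/+) and Sox10 at the lower left (-2.12 in Pax7-/-, -1.75 in Pax7+/+).

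Which factors lay above background thus depended on the replicate. Signal above background is not proof of expression, since 6 of 13 markers of embryonic stem cells had it too. Sox10 had 6.43, 6.32 and 4.26 in Pax7-/- cells, against 6.05, 6.34 and 4.44 in Pax7+/+ cells, and lay above background on replicates 1 and 2 and below it on replicate 3. Tfap2a was the reverse. Foxd3 had 7.14, 6.82 and 5.43 in Pax7-/- cells, against 6.95, 6.85 and 5.23 in Pax7+/+ cells, above background throughout. Along with these shifts, the summed signal of 9 of 13 marker lists was lower on both replicate 3 arrays than on all other 4, that of 3 lists (fibroblast, neuron, and pericyte and smooth muscle) was higher, and that of skeletal muscle was neither. Markers of Schwann cells and glia, for example, summed to 150.5 on the Pax7-/- and 116 on the Pax7+/+ replicate 3 array. On the other 4 arrays they summed to 248 to 261. Those of cartilage summed to 332 on the Pax7-/- and 341 on the Pax7+/+ array, against 579.9 to 612 on the other 4. Of the measured markers, 3 of 6 for glia and 7 of 9 for cartilage were above background. The background level itself was 4.63 and 4.65 on replicate 3, against 5.33 to 5.44 on the others. Lower sums of dim markers are therefore not read as fewer cells of a type. The part of the marker genes and of the background level in the shifts was not tested. The labels do not say what sets replicate 3 apart.

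Other mesenchymal and crest factors outside this set were measured for 61 of 67 listed genes, 51 of them above background, and limma called none in either direction in either fit (smallest adjusted p with the block = 0.493). In Pax7-/- cells 14 of the 61 were lower in every pair and 6 higher, against 13.8% of all genes each way, and the median was -0.02. Of the 51 above background, 10 were lower and 6 higher in every pair. The 4 with the smallest p were the forkhead factor Foxd2, the LIM homeobox factors Lhx9 and Lhx6, and the Hedgehog effector Gli2. Their differences were 0.32 (SE 0.09), -0.29 (SE 0.10), 0.25 (SE 0.10) and -0.33 (SE 0.12), in that order. Foxd2 was not above background in Pax7+/+ cells, and both its replicate 1 arrays lay below it. With background in place of dimmer Pax7+/+ signals its difference was 0.20. Of 20 genes that change in epithelial to mesenchymal transition, some epithelial and some mesenchymal, 19 were measured and 12 were above background. Among the 19, 0 were lower and 4 higher in all 3 pairs, against 13.8% of all genes each way, and none was called. The pairs of the epithelial genes Krt8, Krt18, Epcam and Cldn3 went both ways. The 4 higher were the gelatinase Mmp2, the growth factor Tgfb1, fibronectin (Fn1) and the integrin subunit Itga5. The smallest p-values were those of Mmp2 (0.27, SE 0.09), the neural cadherin Cdh2, whose pairs went both ways (0.25, SE 0.12), Tgfb1 (0.18, SE 0.11) and Fn1 (0.14, SE 0.09), all with the block.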

How the data were processed

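Total RNA of 6 MEF cultures was hybridised to Affymetrix arrays, 3 per genotype. Per the submitters' processing notes the tools were Partek and RMA, with no version or parameter stated. The values the authors deposited are taken as log2 signals, 1 per probe set, from their range. Of 41345 probe sets, 23521 named 1 gene in the platform annotation, 1814 named several and 16010 were not listed; 23328 matched RefSeq by Entrez number and 0 symbols changed. The probe set with the highest mean stood for a gene. No further normalization or filter was applied. Genotypes were compared with limma 3.58.1 in R 4.3.3 (lmFit, then eBayes; two-sided tests; p-values adjusted by Benjamini-Hochberg over all 22180 genes), with genotype as the only term and, as an alternative, the replicate number as a block. The scripts were tested on simulated data.

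The deviations from the genotype means were compared between genotypes. Arrays with the same number gave correlations of 0.920 (replicate 1), 0.895 (replicate 2) and 0.973 (replicate 3), and the numbers were treated as pairs. Across numbers, Pax7-/- replicate 1 correlated with Pax7+/+ replicate 2 at 0.898, and Pax7-/- replicate 2 with Pax7+/+ replicate 1 at 0.910. The data thus set replicate 3 apart but do not show how replicates 1 and 2 pair. The labels state no pairing, so the pairs and the block follow the replicate numbers alone. P-values measure the spread between these samples, and the number of arrays limits the precision. An exact permutation test of 3 against 3 arrays cannot go below p = 0.1, so none was used. The members, gene lists and background rule were chosen with earlier results of these data known. Members were named by a rule: every member at least once, with all arrays for the 10 smallest p in either fit, for paralogue pairs and for the extremes; of other lists, the 4 with the smallest p. Other settings tried were a batch block, arrays left out, quantile normalization, median centring, a filter on dim genes, averaged probe sets, an intensity trend and other background percentiles.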

Additional observations from a re-analysis of the deposited data

How the results depend on the processing

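Against 0 genes called with genotype only, limma called 17 with the replicate block, 19 with replicate 3 set against the other 2 as a batch block, and, in settings chosen after seeing the data, 15 with the replicate block and quantile normalization, 42 with the replicate block and dim genes removed, and 18 with the replicate block and median centring. Leaving out single arrays gave 0 genes, and leaving out replicate 1, 2 or 3 with the block gave 98, 2 and 4. Of members, 1 was called without replicate 1 (Tfap2b, with the block) and 1 with the block and dim genes removed (Osr1, adjusted p = 0.0349, against 0.0349 to 0.204 over the settings with the block), and 0 in the other settings. The median difference of the members ran from -0.081 (without Pax7-/- replicate 3) to 0.037 (without Pax7+/+ replicate 3). With the 99th percentile as background 19 members were above it, in place of 31. Quantile normalization turned Tbx5 to 0.044, with and without the block.

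Without a single array, replicate 3 weighs more in 1 genotype than in the other, and the sign of some differences turned. Their lowest and highest values were -0.26 and 1.52 for Twist2, -0.018 and 0.55 for Foxc2, -0.056 and 0.47 for Ets1, -0.081 and 0.56 for Foxc1, -0.71 and 0.38 for Tbx15, -0.31 and 0.050 for Twist1, -0.44 and 0.64 for Foxd3, -0.64 and 0.51 for Tfap2a and -0.31 and 0.42 for Sox9. They were -0.10 and 0.20 for Snai1, -0.20 and 0.099 for Alx4, -0.54 and 0.62 for Snai2, -0.52 and 0.37 for Tbx18, -0.52 and 0.77 for Sox10, -0.089 and 0.20 for Foxf1, -0.46 and 0.36 for Hand1, -0.61 and 0.34 for Dlx6, -0.26 and 0.35 for Tbx5 and -0.56 and 0.66 for Dlx3. With the block and 1 replicate left out, the lowest and highest values were -0.32 and 0.014 for Tbx4, -0.34 and 0.072 for Tfap2a, -0.0035 and 0.31 for Tbx3, -0.072 and 0.23 for Sox9, -0.067 and 0.21 for Snai1, -0.030 and 0.20 for Shox2, -0.099 and 0.0072 for Tbx18, -0.10 and 0.18 for Sox10, -0.23 and 0.12 for Dlx6, -0.15 and 0.12 for Tbx5 and -0.070 and 0.087 for Dlx3. The cause of the other changes was not tested. Osr1 (-0.88 to -0.37 without single arrays), Prrx1 (-0.75 to -0.14), Tfap2b, Msx2, Hand2, Osr2, Prrx2, Dlx2 and Tbx2 kept their sign in these settings. Signal near background limits Tfap2b, Tfap2a, Twist2, Hand2, Ets1, Sox10, Tbx18, Tbx2 and Dlx6. For Tfap2a, Sox10 and Tbx18 the values above show only that the fitted sign turned and are not read as sizes.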
